A study of Mus musculus with 16 samples.

Results

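Kcnk2 encodes TREK-1, a potassium channel that arachidonic acid opens, and it is 1 gene of the 33072 in the count table. It was identified by its Ensembl identifier, ENSMUSG00000037624, and it was chosen by its measured levels in these same samples, mainly its lower level in CIX treated 4T1 cells. Its own levels and differences are therefore given as a description without a test. Tests are given for other genes, by the position of the gene or by lists of related genes. RNA was sequenced from 2 mouse mammary carcinoma cell lines of the BALB/c strain, the metastatic line 4T1 and the non-metastatic line 67NR, which were isolated from the same spontaneous tumor. Cells of each line received the vehicle DMSO or 15 µM CIX, an inhibitor of the cytosolic phospholipase A2 cPLA2α, for 24 h in culture. Each of the 4 groups held 4 biological replicates, giving 16 samples. They are named here by line, treatment and the number from 1 to 16 in the labels.

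TREK-1 belongs to the two-pore domain (K2P) potassium channels, whose background currents hold the membrane potential negative. The channel opens on membrane stretch, heat, intracellular acid and polyunsaturated fatty acids, arachidonic acid among them, and it closes when it is phosphorylated by protein kinase A. cPLA2α releases arachidonic acid from membrane phospholipids, so that the inhibited enzyme makes a ligand of the channel. TREK-1 is best known from neurons, heart and smooth muscle.

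The gene lies on chromosome 1 of GRCm38 from 189207930 to 189402273, on the minus strand. The GENCODE annotation gives it 10 transcripts over 194.3 kb. RefSeq places starts of transcripts in 4 windows of 300 bases, each with 250 bases before and 50 after the start (GRCm38.p6). The deposited count was a sum over transcripts, so that the values cannot be assigned to a start. The upstream bases of 3 windows that lie outside every annotated exon of the gene are shown, because they show how unlike the alternative starts are. The capitals mark a GC box (GGGCGG) or an AP-1 motif (TGANTCA), read on both strands.
Distal start, chr1:189402274-189402523: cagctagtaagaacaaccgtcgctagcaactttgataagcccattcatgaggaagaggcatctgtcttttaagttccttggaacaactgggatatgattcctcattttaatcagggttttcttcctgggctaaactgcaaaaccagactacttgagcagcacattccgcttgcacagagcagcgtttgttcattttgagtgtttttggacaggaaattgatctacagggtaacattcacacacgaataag
Middle start, chr1:189344193-189344442: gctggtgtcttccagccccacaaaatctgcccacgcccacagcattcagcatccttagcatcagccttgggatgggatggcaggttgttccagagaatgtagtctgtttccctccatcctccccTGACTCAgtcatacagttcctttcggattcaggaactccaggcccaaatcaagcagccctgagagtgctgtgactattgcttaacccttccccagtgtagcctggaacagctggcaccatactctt
CpG-rich start, chr1:189343833-189343957: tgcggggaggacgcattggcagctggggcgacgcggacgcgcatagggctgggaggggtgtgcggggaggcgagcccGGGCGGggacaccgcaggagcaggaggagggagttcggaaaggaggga
The window of the distal start held 43% G and C and 6 CpG, whereas the windows of both starts nearest the 3′ end of the gene held 68.7% and 74.7% G and C and 33 CpG each. Over 32851 windows of this length the median was 52.7% G and C and 7 CpG. A GC box occurred in 35.7% of these windows and in 1 of the 4 of Kcnk2. The AP-1 motif occurred in 7.81% of them and also in 1 of the 4. TATAAA and the cAMP response element TGACGTCA were searched in the same way and were found in none of the 4 windows, against 13.6% and 1.79% of all windows. These are matches of letters only.

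The counts of Kcnk2 were high enough in every sample for a precise level, from 338 to 2743 estimated counts, against a floor of 3 counts or at most 0.137 CPM. CPM is the count relative to the size of the library, scaled by TMM normalization over the 16 samples. Library sizes were between 21715700 and 29450629 estimated counts. Reads carried no molecular identifiers, so the floor covers counting error only. Of the 4994 words of 31 bases in Kcnk2 transcripts, 2 occurred in another gene, which was 0.0400%. The annotated antisense transcript A430027H14Rik covers the starts between 189343431 and 189344897 on the plus strand. It was not analysed here. The library kit was strand-specific, but the strand setting of the counting is not given in the sources used here. Reads of the antisense transcript therefore cannot be told apart from those of Kcnk2 where they overlap. Of the 3 other annotated genes within Kcnk2, the transcript 2900042K21Rik and the processed pseudogene Pdcd5-ps lie on the minus strand, as Kcnk2 does. Strand would not separate their reads from those of Kcnk2, but their sequences share at most the 2 words given above with its transcripts. The miRNA gene Gm24092 lies on the plus strand. Beyond the shared words, the part of these 3 genes in the Kcnk2 counts was not tested.

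Kcnk2 was highest in vehicle treated 4T1 cells and lowest in CIX treated 4T1 cells. With vehicle, Kcnk2 was at 112.9, 92.7, 93.7 and 91.3 CPM in 4T1 samples 3, 7, 11 and 15. With CIX, it was at 20.6, 17.1, 15.9 and 13.6 CPM in 4T1 samples 4, 8, 12 and 16. The lowest vehicle sample lay 70.6 CPM above the highest CIX sample. The means were 97.6 ± 10.2 and 16.8 ± 2.94 CPM (SD, n = 4), a 5.81-fold lower level with CIX. On the log2(CPM + 0.5) scale the difference of means was -2.51, against a pooled SD of 0.20. Without vehicle sample 3, the highest of its group, it was -2.44.

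In 67NR cells, Kcnk2 differed little between the treatments. With vehicle, it was at 45.4, 46.6, 46.8 and 59.8 CPM in 67NR samples 1, 5, 9 and 13. With CIX, it was at 42.9, 43.4, 38.8 and 36.6 CPM in 67NR samples 2, 6, 10 and 14. No sample overlapped between the treatments, but the nearest samples were only 2.03 CPM apart. The means were 49.6 ± 6.76 and 40.4 ± 3.26 CPM (SD, n = 4), with overlapping SD ranges. The difference of means was -0.29 on the log2 scale, with a pooled SD of 0.15. Sample 13 carried part of it, since the difference was -0.20 without this sample, the smallest value of any sample left out.

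Between the lines, the order of Kcnk2 turned with the treatment. With vehicle, 4T1 cells held 1.97-fold the Kcnk2 level of 67NR cells, a log2 difference of 0.97 with a pooled SD of 0.16. With CIX, 67NR cells held 2.40-fold the level of 4T1 cells, a log2 difference (4T1 minus 67NR) of -1.25 with a pooled SD of 0.19. The difference of the CIX response between the lines was -2.23 on the log2 scale. The full order was vehicle treated 4T1, vehicle treated 67NR, CIX treated 67NR and CIX treated 4T1. Of the neighbours in this order, only the middle pair of both 67NR groups had overlapping ranges of mean ± SD. In bulk RNA, fewer expressing cells and less Kcnk2 RNA per cell cannot be told apart.

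**Figure D1:**
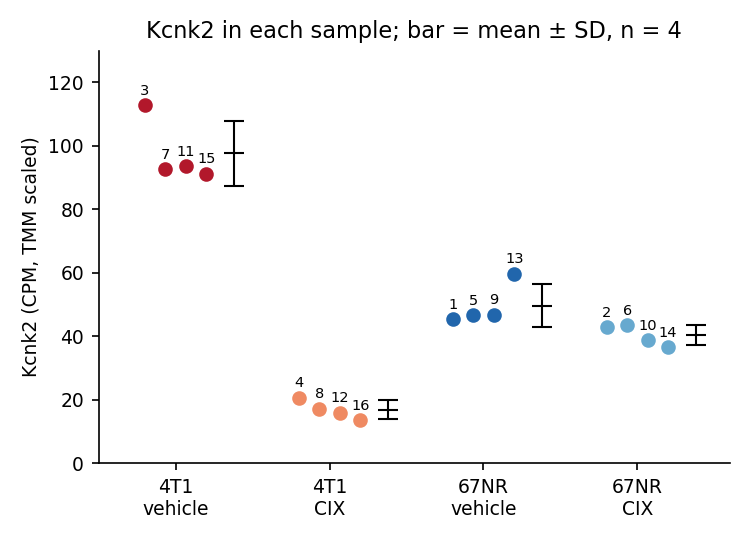
Level of Kcnk2 in CPM (vertical axis, linear, from 0) in each of the 16 samples, numbered as in the labels, by line and treatment. The bars beside the points give the mean ± SD of 4 samples. The CIX treated 4T1 samples lie between 13.6 and 20.6 CPM, below all other samples.

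The lines differ in cell type markers as well as in Kcnk2. The summed level of 7 epithelial markers was 2480 to 2895 CPM in 4T1 samples and 1.07 to 5.39 CPM in 67NR samples, and the defining markers Epcam and Cdh1 averaged below 0.5 CPM in 67NR cells. The 5 fibroblast markers summed to 49.1 to 60.3 CPM in 4T1 samples. In 67NR samples they summed to 185 to 200 CPM with vehicle and 236 to 297 CPM with CIX, without overlap, while the marker Pdgfrb was at 41.9 to 60.2 CPM with vehicle and 28.7 to 34.9 CPM with CIX. Within 4T1 cells, the epithelial sum was 2480 to 2671 CPM with vehicle and 2633 to 2895 CPM with CIX. Its members went different ways, with Epcam at 315 ± 3.10 CPM with vehicle and 186 ± 11.9 CPM with CIX, Cdh1 at 599 ± 84.5 and 493 ± 23.5 CPM, Krt8 at 550 ± 116 and 747 ± 122 CPM and Krt18 at 1074 ± 44.3 and 1199 ± 29.3 CPM (SD, n = 4). Epcam, a surface marker of epithelial cells, was thus lower with CIX in the same samples as Kcnk2. The 3 neuron markers reached at most 0.178 CPM and the 3 endothelial markers at most 2.69 CPM. The 5 leukocyte markers summed to 1.07 to 1.68 CPM in vehicle treated and 0.386 to 1.14 CPM in CIX treated 4T1 cells. The part of these markers in the values of Kcnk2, between lines or treatments, was not tested.

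Among all genes at 1 approximate TPM (a level per transcript length and library size) or more, Kcnk2 ranked 2593 of 12105 in vehicle treated 4T1 cells, that is within the highest 21.4%. With CIX it ranked 8154 of 11751, at 69.4% from the top. In 67NR cells it ranked 4466 of 11718 with vehicle and 5139 of 11726 with CIX. Ordered by log2 fold change, the fall of Kcnk2 in 4T1 cells was the 68th deepest of 11659 genes. Among the 4739 genes that had at least 50 CPM with vehicle, it was the 19th deepest. In 67NR cells its fold change was the 1859th lowest of 11560. Its difference of response between the lines was the 203rd lowest of 12605, and its difference between the vehicle treated lines was the 1747th highest of 11040. These ranks describe the values that led to the choice of the gene.

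Within the K2P family, Kcnk2 was a main transcript in both lines, except in CIX treated 4T1 cells. Of the 14 family genes, 5 reached 10 estimated counts in any sample: Kcnk1 (TWIK-1), Kcnk2, Kcnk3 (TASK-1, an acid-sensitive channel), Kcnk5 (TASK-2, an alkaline-activated channel) and Kcnk6 (TWIK-2). The other 9 did not, and 1 of these was at 0 in all samples. They include the channels closest to TREK-1 in structure and gating, Kcnk4 (TRAAK) and Kcnk10 (TREK-2), which were looked up after the values were seen. Kcnk4 reached at most 5 and Kcnk10 at most 4 counts in a sample. TREK-1 was thus the only one of these 3 arachidonic acid-gated channels with a level well above the floor.

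The summed K2P level fell with Kcnk2. In approximate TPM, Kcnk2 averaged 76.5 ± 7.94 with vehicle and 12.4 ± 2.20 with CIX in 4T1 cells, and the family summed to 173 ± 9.60 and 94.9 ± 3.73 (SD, n = 4). The share of Kcnk2 in that sum was 42.2% to 47.4% with vehicle and 11.0% to 15.3% with CIX. In 67NR cells the family summed to 46.0 ± 2.52 with vehicle and 39.2 ± 1.50 with CIX, and the share of Kcnk2 was 76.4% to 84.6% and 74.4% to 78.1%. The rest in 4T1 cells was mainly Kcnk1 (59.6 ± 2.85 TPM with vehicle and 56.4 ± 2.12 with CIX), Kcnk5 (28.0 ± 1.89 and 18.5 ± 0.63) and Kcnk6 (9.00 ± 2.15 and 7.48 ± 0.60). Kcnk1 and Kcnk6 averaged 79.4 ± 3.65 and 16.5 ± 3.91 CPM there with vehicle, but 0.10 ± 0.12 and 0.20 ± 0.13 CPM in vehicle treated 67NR cells. Kcnk3 had the opposite order and a low level, 0.02 ± 0.02 CPM in vehicle treated 4T1 and 1.29 ± 1.38 CPM in vehicle treated 67NR cells.

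**Figure D2:**
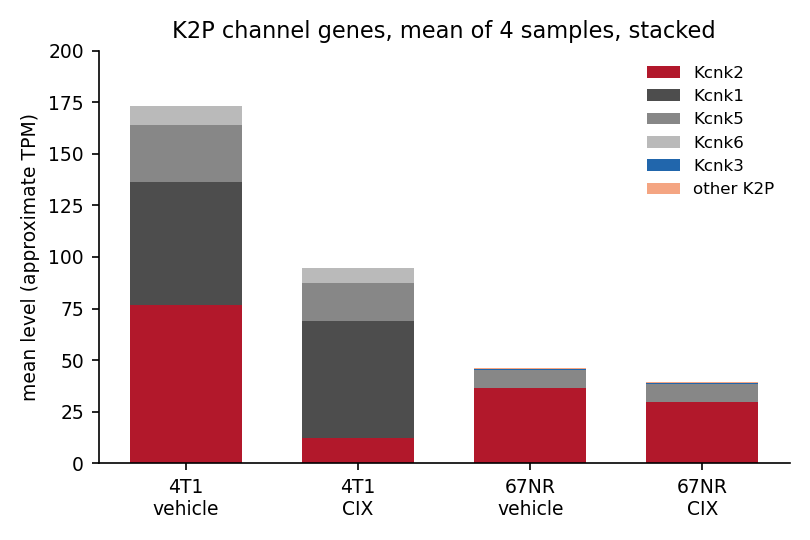
Mean approximate TPM of K2P genes (vertical axis, linear, from 0) stacked by gene, for each line and treatment, as means of 4 samples. The Kcnk2 segment is 76.5 in vehicle treated and 12.4 in CIX treated 4T1 cells, while Kcnk1 stays at 59.6 and 56.4 and is near 0 in 67NR cells.

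Of the other K2P genes tested for CIX against vehicle, limma-voom and edgeR called none, while DESeq2 called Kcnk5 lower in 4T1 cells. Genes were tested with limma-voom over all genes that passed the study's filter (TPM below 1 in at most 3 samples) and called where the p-value, adjusted by Benjamini-Hochberg over these genes, was below 0.001, the study's threshold. In 4T1 cells, 5.35% of 11659 genes were called higher and 3.99% lower with CIX, and 51.2% were below 0.05 before adjustment. At the same threshold edgeR called 5.02% higher and 3.84% lower, and DESeq2 14% and 12.6%. Of the 3 other K2P genes tested there, 0 were called, 1 was below 0.05 before adjustment, edgeR called 0 and DESeq2 called 1, Kcnk5. Kcnk5 had the largest value, with 42.6 ± 3.22 CPM in vehicle treated and 30.0 ± 1.21 CPM in CIX treated cells (SD, n = 4) and a log2 fold change of -0.52 (SE 0.10, limma-voom adjusted p = 0.00269). Its 4 vehicle samples (39.0 to 46.8 CPM) lay above the 4 CIX samples (28.7 to 31.3 CPM). Kcnk1 had a log2 fold change of -0.01 (SE 0.09, limma-voom adjusted p = 0.965), and Kcnk6 had -0.16 (SE 0.18, limma-voom adjusted p = 0.474).

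In 67NR cells, 0.182% of 11560 genes were called higher and 0.208% lower with CIX, and 32.8% were below 0.05 before adjustment. The shares called by edgeR were 0.199% in each direction, and those by DESeq2 were 4.55% higher and 4.84% lower. Kcnk5 was the only other K2P gene tested there, with 13.5 ± 1.39 CPM in vehicle treated and 13.9 ± 0.82 CPM in CIX treated cells and a log2 fold change of 0.03 (SE 0.10, limma-voom adjusted p = 0.868). Between the vehicle treated lines, 20.4% of 11040 genes were called higher and 19.6% lower in 4T1, against 20.2% and 18.7% by edgeR and 26.4% and 25.7% by DESeq2. Kcnk5, again the only one tested, was called higher in 4T1 with a log2 fold change of 1.65 (SE 0.10, limma-voom adjusted p = 1.26e-06). Kcnk1, Kcnk3 and Kcnk6 were left out of that comparison by the filter, since they were at or near 0 in one of the lines. For the difference of the CIX response between the lines, 4.81% of 12605 genes were called higher and 3.05% lower, and 39.1% were below 0.05 before adjustment. By edgeR these shares were 4.74% and 3.28%, and by DESeq2 8.64% and 7.1%. Of the 3 other K2P genes, limma-voom and edgeR called 0 there, 1 was below 0.05 before adjustment and DESeq2 called 1, Kcnk5, with -0.55 in limma-voom (SE 0.13, adjusted p = 0.00591).

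The 63 pore-forming subunits of other potassium channel families were mostly not expressed. Of these, 40 stayed below 10 counts in all samples, 10 of them at 0. With CIX, limma-voom, edgeR and DESeq2 called 0 of 5 tested in 4T1 and 0 of 3 tested in 67NR cells. Over all genes limma-voom called 5.35% higher and 3.99% lower in 4T1, and 0.182% and 0.208% in 67NR cells. Before adjustment, 2 of the 5 were below 0.05 in 4T1, against 51.2% of all genes, and 3 of the 3 in 67NR cells, against 32.8%. The response differed between the lines in 0 of 6 by any of these tests. Over all genes limma-voom called 4.81% higher and 3.05% lower for this difference. Before adjustment 1 of the 6 was below 0.05, against 39.1% of all genes. Kcnh2, the voltage-gated hERG channel, was called lower in vehicle treated 4T1 than in 67NR cells, at 2.18 ± 0.42 against 6.01 ± 1.46 CPM, with a log2 fold change of -1.44 (SE 0.25, limma-voom adjusted p = 0.000723). With 1 vehicle sample fewer it was called only without 67NR sample 9 (-1.66, limma-voom adjusted p = 0.000225), and the adjusted p was otherwise up to 0.00325. The other of the 2 tested, the calcium-activated channel Kcnn4, was not called. Over all genes 19.6% were called lower in 4T1 in that comparison and 20.4% higher.

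Of 10 genes for partners and regulators of TREK-1, Copb1 was called higher with CIX in 4T1 cells, opposite in direction to Kcnk2. Copb1 encodes β-COP, a coat protein of transport vesicles that binds TREK-1. It was at 75.2 to 88.6 CPM in the 4 vehicle treated and 131 to 183 CPM in the 4 CIX treated 4T1 samples, without overlap. Its log2 fold change was 0.94 (SE 0.12, limma-voom adjusted p = 0.000405). In 67NR cells Copb1 had 0.14 (SE 0.06, limma-voom adjusted p = 0.164). The difference of the response was called, at 0.79 (SE 0.14, limma-voom adjusted p = 0.000553). In 4T1 cells Copb1 was 1 of 6 tested genes called higher by limma-voom and edgeR, with 0 lower, and DESeq2 called Copb1 and Pld2 higher. Over all genes tested there, limma-voom called 5.35% higher and 3.99% lower, and DESeq2 14% and 12.6%. Before adjustment 6 of 6 were below 0.05, against 51.2% of all genes. In 67NR cells limma-voom and edgeR called 0 of 6, and DESeq2 called Pld2. Over all genes there, limma-voom called 0.182% higher and 0.208% lower, and DESeq2 4.55% and 4.84%. Before adjustment 1 of the 6 was below 0.05 there, against 32.8% of all genes. For the difference of the response 1 of 7 was called and 6 of 7 were below 0.05 before adjustment, against 4.81% called higher and 39.1% below 0.05 over all genes. With 1 4T1 sample fewer, the 4T1 call of Copb1 was kept only without CIX sample 4 (log2 fold change 1.03, adjusted p = 0.000228) and otherwise reached at most an adjusted p of 0.00225. The difference of its response was kept in 4 of 16 such fits, those without 4T1 CIX sample 4, 4T1 vehicle samples 11 and 15 and 67NR vehicle sample 13.

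Between the vehicle treated lines, Pld2 and Copb1 were called among 5 tested partners, 1 higher and 1 lower in 4T1, which is near the 20.4% and 19.6% of all genes. Pld2, a phospholipase D that forms a complex with TREK-1, was at 24.2 ± 4.73 CPM in 4T1 and 2.39 ± 0.90 CPM in 67NR cells, with a log2 fold change of 3.39 (SE 0.28, limma-voom adjusted p = 5.95e-06). Copb1 had the opposite order, at 82.6 ± 6.67 and 168 ± 12.2 CPM, with -1.04 (SE 0.08, limma-voom adjusted p = 5.12e-06). Prkaca and Prkacb, the catalytic subunits of protein kinase A, had -0.01 and -0.08 and were not called.

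The enzyme that CIX inhibits, cPLA2α, is encoded by Pla2g4a, whose level varied more between samples of a group than that of Kcnk2. It was at 58.7 to 162 CPM in vehicle treated and 107 to 186 CPM in CIX treated 4T1 cells, with overlap and a log2 fold change of 0.61 (SE 0.30, limma-voom adjusted p = 0.131). In 67NR cells, vehicle sample 13 was at 324 CPM and the other vehicle samples at 60.1 to 81.1 CPM. The 67NR CIX samples 2, 6, 10 and 14 were at 107, 116, 176 and 127 CPM, all above these 3 and below sample 13. The log2 fold change was 0.28 in limma-voom (SE 0.48, adjusted p = 0.727) and -0.08 in DESeq2. Vehicle sample 13 also had the highest Kcnk2 level of its group, and its part in the 67NR values was not tested beyond leaving it out. Of 17 genes for release, oxygenation and re-esterification of arachidonic acid, limma-voom and edgeR called 0 of 10 tested in 4T1 cells, where limma-voom called 5.35% of all genes higher and 3.99% lower. DESeq2 called 2 higher and 2 lower (Ptgs1, Ptgs2, Acsl4 and Pla2g6), against 14% and 12.6% of all genes. Before adjustment 5 of the 10 were below 0.05, near the 51.2% of all genes. In 67NR cells limma-voom and edgeR called 0 of 9, where limma-voom called 0.182% of all genes higher and 0.208% lower. DESeq2 called Ptges and Ptgs2 higher there, against 4.55% of all genes. Before adjustment 5 of the 9 were below 0.05, against 32.8% of all genes. Ptgs2, the inducible cyclooxygenase COX-2, had log2 fold changes of 0.64 in 4T1 (SE 0.14, limma-voom adjusted p = 0.00483) and 1.57 in 67NR cells (SE 0.25, limma-voom adjusted p = 0.00473).

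The response of Ptgs1, the constitutive cyclooxygenase COX-1, differed between the lines by 0.84 (SE 0.11, limma-voom adjusted p = 4.7e-05), the only call among 10 by limma-voom and edgeR, while DESeq2 also called Pla2g6, lower. Over all genes 4.81% were called higher and 3.05% lower for this difference by limma-voom. It was at 120 to 132 CPM with vehicle and 169 to 203 CPM with CIX in 4T1, and at 569 to 649 and 468 to 542 CPM in 67NR cells. The groups did not overlap, and the direction was opposite in the lines, as was not the case for Kcnk2. This call was kept in 16 of 16 fits with 1 sample left out. Between the vehicle treated lines, 3 of 10 genes were called higher in 4T1 and 3 lower, where 20.4% of all genes were called higher and 19.6% lower. The higher ones were Acsl4 (2.52), which activates arachidonic acid for re-esterification, Ptgs2 (2.44) and the phospholipase Pla2g6 (1.25). The lower ones were Alox5ap (-5.26), which presents arachidonic acid to 5-lipoxygenase, Ptgs1 (-2.28) and the prostaglandin E synthase Ptges (-1.86). Ptges was the weakest of these calls, with a limma-voom adjusted p of 0.000958. By edgeR it was not called (-1.64, adjusted p = 0.00563), which left 2 lower. With 1 sample fewer it was called only without 4T1 vehicle sample 3 (-2.24, limma-voom adjusted p = 1.1e-05), and the adjusted p was otherwise up to 0.00478.

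TREK-1 also answers to membrane stretch. Of 10 other mechanosensitive channel genes, Pkd1, which encodes polycystin-1, was called higher with CIX in 4T1 cells among 8 tested, and 0 were called lower, where 5.35% of all genes were called higher and 3.99% lower. Before adjustment 5 of the 8 were below 0.05, against 51.2% of all genes. Pkd1 was at 38.9 to 58.5 CPM with vehicle and 79.8 to 90.2 CPM with CIX, with a log2 fold change of 0.94 (SE 0.14, limma-voom adjusted p = 0.000812). By edgeR it was not called (adjusted p = 0.00117) and 0 of the 8 were, whereas DESeq2 called 4 higher (Piezo1, Pkd1, Tmem63b and Trpv4) and 1 lower (Trpm7), against 14% and 12.6% of all genes. The call was kept in 1 of 8 fits with a sample left out, without vehicle sample 15 (1.07, limma-voom adjusted p = 0.000402), and the highest adjusted p among these fits was 0.00412. In 67NR cells limma-voom, edgeR and DESeq2 called 0 of 6, with 3 below 0.05 before adjustment, against 32.8% of all genes. For the difference of the response they called 0 of 8, with 2 below 0.05 before adjustment, against 39.1% of all genes. Over all genes limma-voom called 0.182% higher and 0.208% lower in 67NR cells, and 4.81% and 3.05% for the difference of the response. Pkd2 (-2.01) and Pkd1 (-1.31) were called lower in vehicle treated 4T1 than in 67NR cells, among 6 tested with 0 called higher, against 19.6% of all genes called lower and 20.4% higher.

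In 4T1 cells the median log2 fold change with CIX was -0.16 for the 3 other K2P genes, -0.46 for 5 other potassium channels, 0.49 for 6 TREK-1 partners, 0.30 for 10 arachidonic acid genes and 0.48 for 8 mechanosensitive channels. Over all genes tested it was -0.01. The lowest single value among the tested genes of these lists was -0.79, against -2.51 for Kcnk2. Kcnk2 was chosen for its low level there, so that this gap is a description only. Popdc3, a TREK-1 partner, was left out by the filter in 4T1 cells. Its response differed between the lines by -3.47 (SE 0.89, limma-voom adjusted p = 0.00821) and was not called.

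**Figure D3:**
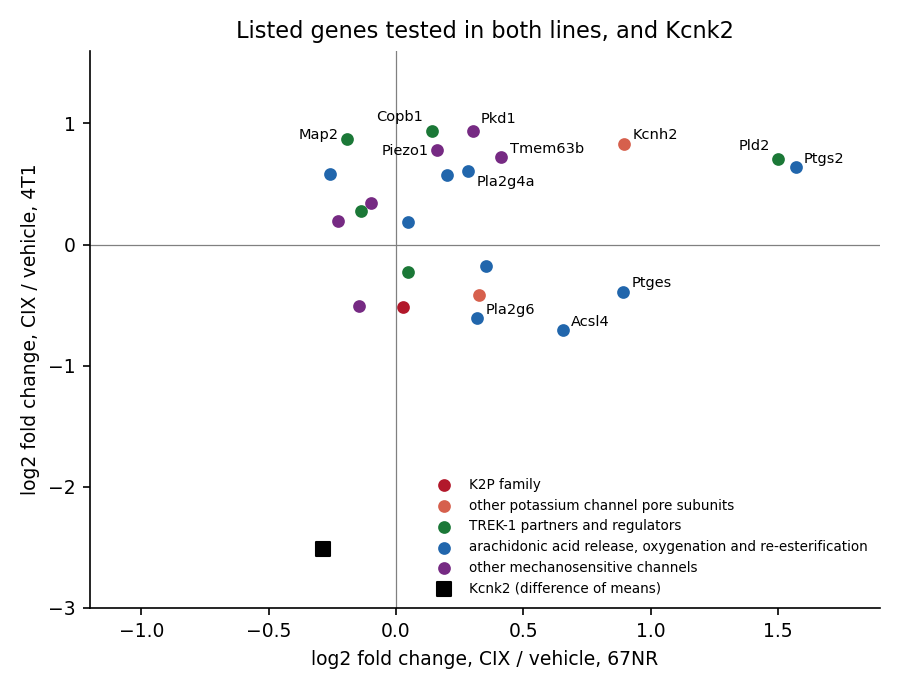
Log2 fold change of CIX against vehicle in 67NR (horizontal axis) and in 4T1 cells (vertical axis) for listed genes tested in both lines, colored by list, from limma-voom with 4 samples per group. Kcnk2 (black square) is the difference of mean log2(CPM + 0.5), at -0.29 and -2.51. It was chosen for its low level in CIX treated 4T1 cells and lies below all listed genes plotted.

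Of the genes beside Kcnk2 on chromosome 1, the 5 nearest protein-coding genes on each side were taken. Described here are Kctd3 at 200 kb, Esrrg, Gpatch2 and Spata17 at 1992 kb on the lower-coordinate side, and on the other side Cenpf at 238 kb, Ptpn14, Smyd2, Prox1 and Rps6kc1 at 1298 kb. In 4T1 cells, 6 of the 10 were tested, 1 was called higher with CIX and 0 lower, where 5.35% of all genes were called higher and 3.99% lower. Before adjustment 5 of the 6 were below 0.05, against 51.2% of all genes. The gene called was Cenpf, a kinetochore protein, at 81.1 to 106 CPM with vehicle and 145 to 215 CPM with CIX, with a log2 fold change of 1.03 (SE 0.15, limma-voom adjusted p = 0.000712). The lowest of the 6 was Rps6kc1 with -0.44 (SE 0.14, limma-voom adjusted p = 0.0347). Kctd3, the nearest, had 0.33 (SE 0.12, limma-voom adjusted p = 0.0478), and of its words of 31 bases 9.31% also occurred in other genes. Ptpn14 and Smyd2 had 0.60 and 0.35, Gpatch2 had -0.03, and none of these 3 was called.

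In 67NR cells limma-voom, edgeR and DESeq2 called 0 of 7 neighbours, where limma-voom called 0.182% of all genes higher and 0.208% lower. Before adjustment 1 of the 7 was below 0.05, against 32.8% of all genes, and Cenpf had -0.36 (SE 0.17, limma-voom adjusted p = 0.179). Its response differed between the lines by 1.39 (SE 0.23, limma-voom adjusted p = 0.000424), the only call among 7, where 4.81% of all genes were called higher. Before adjustment 4 of the 7 were below 0.05, against 39.1% of all genes. With 1 sample left out, this difference was kept in 8 of 16 fits, with limma-voom adjusted p values of 0.000122 to 0.00134. It was lost without 67NR samples 2, 5, 9 or 13 or 4T1 samples 7, 8, 12 or 16, where the fold change was 1.33 to 1.40. For the difference of the response, Spata17 had the lowest value of the 7, -1.98 (SE 0.51, limma-voom adjusted p = 0.00898), and was not called. The filter left Spata17 out of the test in 4T1 cells, and its log2 fold change in 67NR cells was -0.01. The 4T1 call of Cenpf was kept in 1 of 8 fits, the one without CIX sample 4 (1.16, limma-voom adjusted p = 0.000280), and the highest adjusted p was 0.0035. Between the vehicle treated lines, where Kcnk2 was 1.97-fold higher in 4T1, Gpatch2 (1.16) and Rps6kc1 (0.98) were called higher among 7 tested, and 0 were called lower, against 20.4% and 19.6% of all genes. The call of Rps6kc1 was lost without 67NR vehicle sample 1, 5 or 13, at a limma-voom adjusted p of up to 0.00116. Prox1 was at 0 in all samples, and Esrrg averaged at most 0.24 CPM in a group.

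**Figure D4:**
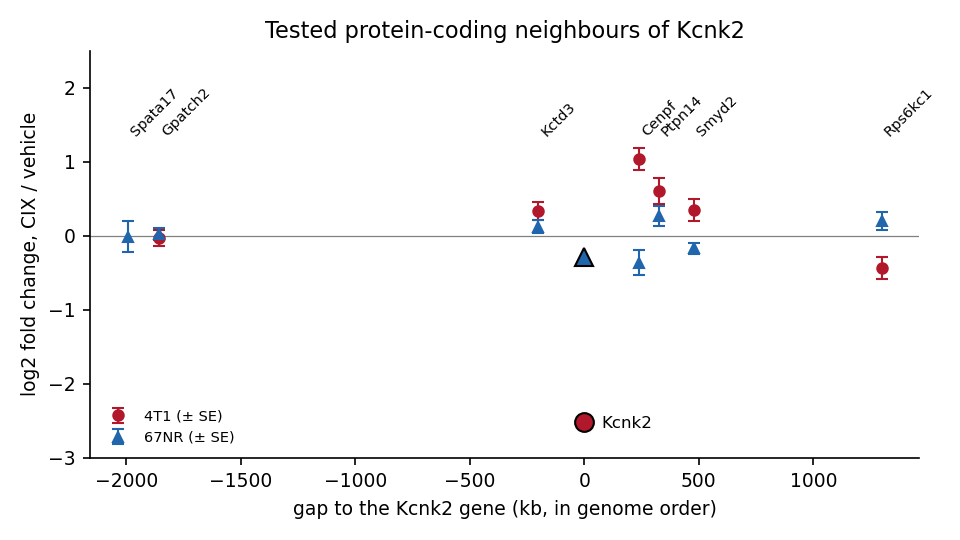
Log2 fold change of CIX against vehicle (vertical axis) of the tested protein-coding neighbours of Kcnk2 by the gap to the gene in kb (horizontal axis), in 4T1 (circles) and 67NR (triangles), with SE bars from limma-voom on 8 samples a line. The outlined symbols at 0 kb are Kcnk2, at -2.51 and -0.29. None of the neighbours plotted lies below -0.44, and Spata17 was not tested in 4T1 cells.

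The genes whose profile lay nearest to that of Kcnk2 were found by the root mean square difference of log2(CPM + 0.5), each gene centred on its own mean. Over 16 samples the 10 nearest of 12604 genes were Trim21 (0.24), Mettl25 (0.35), Sfxn2 (0.37), Zc3h8 (0.38), Dtwd2 (0.38), Slfn8 (0.38), Pik3r3 (0.39), Fbxo9 (0.39), Qpctl (0.41) and Rtp3 (0.41), against a median distance of 1.06. With profiles also divided by their SD, 4 of the 10 stayed (Trim21, Sfxn2, Fbxo9 and Qpctl) and Qpctl was the nearest. The nearest without that step, Trim21, encodes a ubiquitin ligase that binds antibodies in the cytosol. It was at 20.7 to 25.0 CPM in vehicle treated and 2.82 to 5.01 CPM in CIX treated 4T1 cells, and at 10.4 to 12.4 and 6.34 to 8.01 CPM in 67NR cells. Its differences with CIX were -2.52 in 4T1 and -0.61 in 67NR on the log2 scale, the former close to the -2.51 of Kcnk2. The other 9 had smaller 4T1 differences than Kcnk2, from -2.39 (Rtp3) to -1.47 (Qpctl). In 67NR they lay between -0.51 (Mettl25) and 0.16 (Pik3r3), which was thus opposite in sign to Kcnk2. Rtp3 averaged only 0.35 CPM in CIX treated 4T1 cells. Of the words of 31 bases of Slfn8 and Pik3r3, 26.8% and 23.7% also occurred in other genes, so that their counts are less certain than that of Kcnk2.

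Over the 8 samples of 4T1 alone, the 5 nearest genes were Trim21 (0.17), Irgm1 (0.27), Oas1a (0.27), Tlr3 (0.29) and Cyb561d2 (0.30). Their differences with CIX in 4T1 were -2.68 (Oas1a) to -2.02 (Cyb561d2). Trim21 was the 1 gene shared by both searches. In 67NR cells, the differences with CIX of Irgm1 (-0.38) and Cyb561d2 (-0.30) were near the -0.29 of Kcnk2, whereas those of Oas1a (0.52) and Tlr3 (0.39) had the opposite sign. All 4 were lower in vehicle treated 67NR relative to 4T1 cells than Kcnk2 was, with Irgm1 at 18.5 ± 0.54 against 77.3 ± 13.3 CPM and Cyb561d2 at 12.0 ± 0.73 against 57.2 ± 10.1 CPM (SD, n = 4). In vehicle treated 67NR cells Oas1a was at 0.27 ± 0.19 CPM and Tlr3, a receptor for double-stranded RNA, at 3.88 ± 1.01 CPM, compared to 94.0 ± 26.5 and 60.0 ± 6.57 CPM in vehicle treated 4T1 cells (SD, n = 4). Of the words of Oas1a, 68.8% also occurred in other genes. The likeness is a description of 16 or 8 samples that share their 4 groups.

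**Figure D5:**
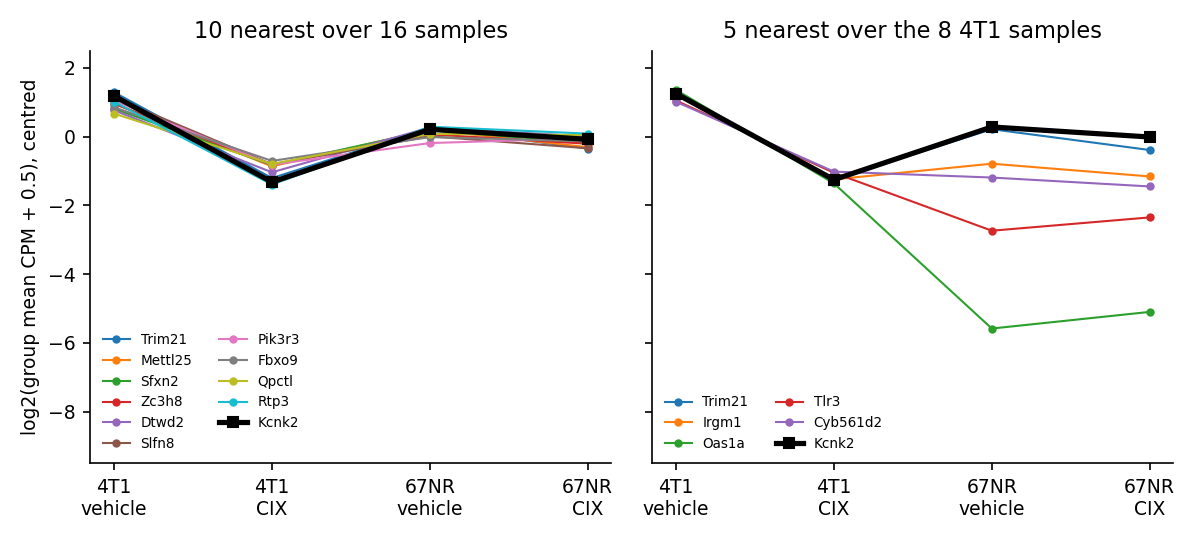
Group means as log2(CPM + 0.5) (vertical axis) for Kcnk2 (black) and the genes nearest to it over 16 samples (left, centred on the mean of the 4 groups) and over the 8 4T1 samples (right, centred on the mean of both 4T1 groups). At the left all lines are lowest in CIX treated 4T1 cells, as Kcnk2 is, and at the right Oas1a and Tlr3 lie far below it in 67NR cells.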

How the data were processed

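RNA-seq of 4T1 and 67NR cells after 24 h of DMSO or 15 µM CIX was used, in 4 biological replicates per group. The authors quantified the reads with salmon (version 0.12 in the submitters' processing notes) on Ensembl GRCm38 and deposited estimated counts of 33072 genes, with no normalization stated. The notes name the human build GRCh38, but all identifiers are of mouse. Of the values above 0, 0.0436% were whole (within 1e-06), and they were rounded. Whether the authors let tximport scale these estimated counts to library size or length is not given in the sources used here, and such scaling would change the floors and the approximate TPM. Samples were grouped by their labels, and all 16 columns were used. Positions and mean transcript lengths came from GENCODE M21, which held 32832 of the genes, and TPM was approximated from these lengths.

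CPM was scaled by TMM over 16 samples, with a pseudocount of 0.5 on the log2 scale. Genes with TPM below 1 in more than 3 of the samples compared were left out, for the interaction only where this held in both lines. Other genes were tested with limma-voom (limma 3.58.1, edgeR 4.0.16, R 4.3.3) in the 8 samples of a line, the 8 vehicle samples or all 16 with an interaction term, and called at a Benjamini-Hochberg adjusted p below 0.001. The code was tested on simulated data. Alternatives were edgeR's quasi-likelihood test, DESeq2 1.42.0 (Wald test and size factors), library size alone, no filter, a threshold of 0.05, other pseudocounts and leaving out each sample. P-values measure the spread between cultures of 1 line each.

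Kcnk2 and the lists were chosen with earlier results of these data known. Named are Kcnk2, K2P genes with 10 or more counts, up to 5 called genes per list and contrast with the largest change, Pla2g4a, Ptgs2, the 10 and 5 nearest genes and 5 neighbours on each side, and any other gene that a count of 5 or fewer or a largest value turned on. Words of 31 bases were compared between transcripts. 1 neighbour is not reported here. RT-qPCR, protein and migration data were not analysed here.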

Additional observations from a re-analysis of the deposited data

Results flagged for a closer look

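A sample far from the other 3 of its group was looked for in 152 groups of values, of Kcnk2 and the other named genes that reached 3 counts in any sample, with Dixon's 95% limit. Kcnq1, which is described under the other observations, was not among the genes searched. Chance gives about 1 in 20, or 7.6, and 11 were found. Kcnk2 itself had 2 of them. It was at 112.9 CPM in 4T1 vehicle sample 3, against 91.3 to 93.7 CPM in the other 3, and at 59.8 CPM in 67NR vehicle sample 13, against 45.4 to 46.8 CPM. Leaving these samples out moved the 4T1 difference to -2.44 and the 67NR difference to -0.20 on the log2 scale.

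Vehicle sample 3 of 4T1 also stood apart for Gpatch2 (44.0 CPM, others 37.5 to 38.4) and for Trim21 (20.7 CPM, others 24.4 to 25.0), where it was the lowest, not the highest. Vehicle sample 13 of 67NR stood apart for Pla2g4a (324 CPM, others 60.1 to 81.1). In 4T1 vehicle sample 11, Acsl4 was high (492 CPM, others 316 to 327) and Pik3r3 low (13.2 CPM, others 20.2 to 21.6). Pkd1 was at 58.5 CPM in 4T1 vehicle sample 15, Ptges at 47.4 CPM in 67NR vehicle sample 1 and Spata17 at 2.67 CPM in 67NR vehicle sample 5. For Kcnk3 in 4T1 CIX sample 16 (0.0402 CPM), the value is below the floor of 3 counts and the other 3 samples were at 0.

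The response to CIX differed between the lines by the interaction test for Cenpf (1.39), Copb1 (0.79) and Ptgs1 (0.84), as log2 values of 4T1 minus 67NR. For Kcnk2 the same difference was -2.23, without a test.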

How the results depend on the processing

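The differences of Kcnk2 kept their direction under every alternative run, within -2.61 to -2.42 (4T1) and -0.33 to -0.20 (67NR) with 1 sample left out. Calls of listed genes moved more. In 4T1, 2 were called, against 1 with edgeR, 1 with library size alone, 12 with DESeq2, 4 without a filter, 15 at a threshold of 0.05 and 0 to 2 with 1 sample left out. In 67NR, 0 were called, against 3 with DESeq2, 8 at 0.05 and 0 with any sample left out. Between vehicle treated lines 12 were called, 23 without a filter and 11 to 15 with 1 sample left out. For the difference of response 2 were called, 4 with DESeq2, 12 at 0.05 and 1 to 3 with 1 sample left out. Over all genes, the 4T1 count was 1089, against 3096 with DESeq2, 4982 at 0.05 and 287 to 1051 with 1 sample left out. In 67NR it was 45, against 1040 with DESeq2, 2054 at 0.05 and 0 to 70 with 1 sample left out. Between the vehicle treated lines it was 4420, against 7442 at 0.05, and for the difference of response 991, against 1980 with DESeq2, 3704 at 0.05 and 650 without 4T1 vehicle sample 7. At 0.05, the neighbours called were 4 in place of 1 in 4T1, 5 in place of 2 between the lines and 4 in place of 1 for the difference of response. With profiles also divided by their SD, 4 of the 10 genes nearest to Kcnk2 were shared with the main search. The cause of these differences was not tested. No paired analysis was run because the labels number the 16 samples once each and give no number, batch or day shared between groups. The 4 groups recur in the same order along these numbers, but no label says that this order marks a batch.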

Other observations

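Kcnq1, a voltage-gated potassium channel of the list of other potassium channels, stood out after its values were seen. It was at 99.8 CPM in 4T1 vehicle sample 15 and at 1.00 to 1.85 CPM in the other 3 vehicle samples of 4T1. Its CIX treated samples of 4T1 were at 1.82 to 5.83 CPM, and 67NR samples at 0.289 CPM or less. Kcnk2 in sample 15, at 91.3 CPM, was not apart from the group.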
